A study of Mus musculus with 6 samples.

Results

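Of the 17866 genes in the deposited table, 185 carried the Gene Ontology process term for cilium assembly, and these 185 genes were followed in all 6 libraries. RNA-seq had been run on the corneal epithelium of C57BL/6 animals aged 6 months, 3 labelled wild type (WT) and 3 labelled Rela-/- (KO), with no other treatment named in the labels. According to the study's methods, a floxed Rela allele was removed by Krt14-Cre, which acts in K14-expressing cells of the limbus, conjunctiva and other epithelia as well as the cornea. Rela is the gene of p65, an NF-κB transcription factor subunit. Whether the WT mice carried Cre or the floxed allele is not given in the labels. Membership came from the term alone and used no measured value. Of the 185 genes, 161 had enough counts to be tested, and the other 24 had at most 16 counts in any library.

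The cilium is a microtubule rod that grows from a centriole, the basal body, and is covered by its own stretch of membrane. Cargo is carried toward the tip by intraflagellar transport (IFT), in which trains of IFT-B and IFT-A proteins are moved outward by kinesin-2 and back by dynein-2. The BBSome, a coat complex named after Bardet-Biedl syndrome, moves membrane proteins out of the cilium, and the transition zone at its base decides what enters. Most vertebrate cells, keratinocytes and corneal epithelial cells among them, can form a single primary cilium, whereas multiciliated cells of the airway make many motile ones under the transcription factor Foxj1. RFX transcription factors bind a site called the X-box in the promoters of many ciliary genes.

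Totals lay between 20158404 and 20880347 estimated counts per library, and 3 counts corresponded to between 0.137 and 0.152 CPM (counts relative to the library total as scaled by edgeR). That floor covers only counting error, while standard errors and intervals of fold changes come from the edgeR fit and include the spread between libraries. Rela itself had 1871, 1844 and 1855 WT counts and 318, 223 and 313 KO counts, which left 16.5% of the WT level. Corneal markers were present in every library, at a summed level of 96430 to 99525 CPM in WT and 24288 to 27706 CPM in KO, and 7 of the 8 were lower in KO. In tissue of this kind, fewer cells of a type and less RNA per cell cannot be told apart.

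To show matches to the X-box, the site of RFX factors, 4 promoters are printed. They belong to the members with an X-box and the largest absolute changes among called members. Each runs 5′ to 3′ on the strand of the gene, from 250 bases before the RefSeq transcript start to 50 bases after it, and the capitals mark the X-box. They are from GRCm38.p6, at chr5:122264411-122264710 (Tctn1, minus strand), chr19:4906578-4906877 (Bbs1, minus strand), chr11:21572031-21572330 (Wdpcp, plus strand) and chr6:30693700-30693999 (Cep41, minus strand). The RefSeq starts used for Tctn1, Wdpcp and Cep41 lie inside the genes as the table bounds them.
Tctn1: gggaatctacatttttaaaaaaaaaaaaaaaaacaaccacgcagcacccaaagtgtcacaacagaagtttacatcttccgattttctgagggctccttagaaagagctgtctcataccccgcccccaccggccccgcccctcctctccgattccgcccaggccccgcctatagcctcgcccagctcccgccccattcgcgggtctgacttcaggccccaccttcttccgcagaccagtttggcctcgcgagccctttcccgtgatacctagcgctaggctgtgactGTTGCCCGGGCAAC
Bbs1: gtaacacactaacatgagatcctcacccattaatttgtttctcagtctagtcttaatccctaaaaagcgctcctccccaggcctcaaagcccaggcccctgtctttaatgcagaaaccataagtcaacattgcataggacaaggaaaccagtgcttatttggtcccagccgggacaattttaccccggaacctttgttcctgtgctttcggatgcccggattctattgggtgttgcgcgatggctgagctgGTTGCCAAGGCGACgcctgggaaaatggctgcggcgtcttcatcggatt
Wdpcp: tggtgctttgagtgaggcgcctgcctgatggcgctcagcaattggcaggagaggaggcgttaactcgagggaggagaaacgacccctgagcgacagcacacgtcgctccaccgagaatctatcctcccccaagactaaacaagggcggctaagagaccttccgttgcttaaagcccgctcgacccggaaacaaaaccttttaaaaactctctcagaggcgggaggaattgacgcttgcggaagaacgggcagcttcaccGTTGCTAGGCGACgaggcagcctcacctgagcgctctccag
Cep41: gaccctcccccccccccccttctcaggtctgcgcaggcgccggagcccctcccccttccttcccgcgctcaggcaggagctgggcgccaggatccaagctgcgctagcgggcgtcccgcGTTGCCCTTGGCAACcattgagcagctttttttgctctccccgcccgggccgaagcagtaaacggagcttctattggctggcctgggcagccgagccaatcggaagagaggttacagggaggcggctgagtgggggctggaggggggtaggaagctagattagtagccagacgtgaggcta
The X-box of Bbs1 began 1 base, that of Wdpcp 9 bases and that of Tctn1 36 bases downstream of the start. The X-box of Cep41 lay upstream, at position -131. All 4 genes were lower in KO, with log2 fold changes of -1.23 for Tctn1, -1.14 for Bbs1, -1.04 for Wdpcp and -0.97 for Cep41.

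Promoters were matched for 141 of the 161 tested members. On both strands, the X-box was found for 14 of these members (9.93%), beside 195 of 10572 tested genes with a promoter (1.84%) and 474 of all 27025 genes with one (1.75%). The single arm GTTGCC, which can also lie within an X-box, was found for 31.2% of the members and 14.5% of all tested genes. Within the members, an X-box was found for 8 of 65 lower genes (12.3%), 2 of 30 higher genes (6.67%) and 4 of 46 genes that did not pass the test (8.70%). Over all tested genes with a promoter, it was found for 76 of 3246 lower genes (2.34%) and 45 of 3332 higher genes (1.35%). The share was thus larger among lower than among higher genes there too. Transition zone genes held 7 of the 14, among 20 with a promoter (35.0%). They were Tctn1, Tctn2, Tctn3 and Armc9, which fell, Tmem237, which rose, and B9d2 and Ahi1, which did not pass. These shares are descriptions without a test, and a match of letters is not a measured binding site.

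Across the 161 tested members, 72 (44.7%) were lower and 34 (21.1%) higher in KO at an adjusted p under 0.05 (edgeR quasi-likelihood test, Benjamini-Hochberg adjustment over 13305 genes). Of all tested genes, 30.2% were lower and 31.8% higher, 62.0% in all. The median log2 fold change of KO over WT (log2FC) was -0.31 for the members and 0.01 for all tested genes. All 3 KO libraries lay below all 3 WT libraries for 82 members and above them for 38, where the shares over all genes were 33.9% and 34.7%. The shift was present in each KO library. Members had a median log2 deviation from the WT mean of 0.04, 0.01 and -0.04 in the WT libraries and of -0.26, -0.27 and -0.29 in the KO libraries, while the median of all genes lay between -0.0027 and 0.0101 in every library. Without the 8 members that passed the filter on low counts through 1 genotype only, 70 of 153 were lower and 30 higher. Most changes were small. At least 2-fold lower were 24 members and at least 2-fold higher 10, beside 10.9% and 15.9% of all genes. At the threshold of the study's methods (adjusted p up to 0.001, at least 2-fold change) 18 members were lower and 7 higher, beside 8.24% and 11.6% of all genes. Without 1 library, 11 to 14 members were lower at that threshold, the fewest without WT replicate 1.

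**Figure D1:**
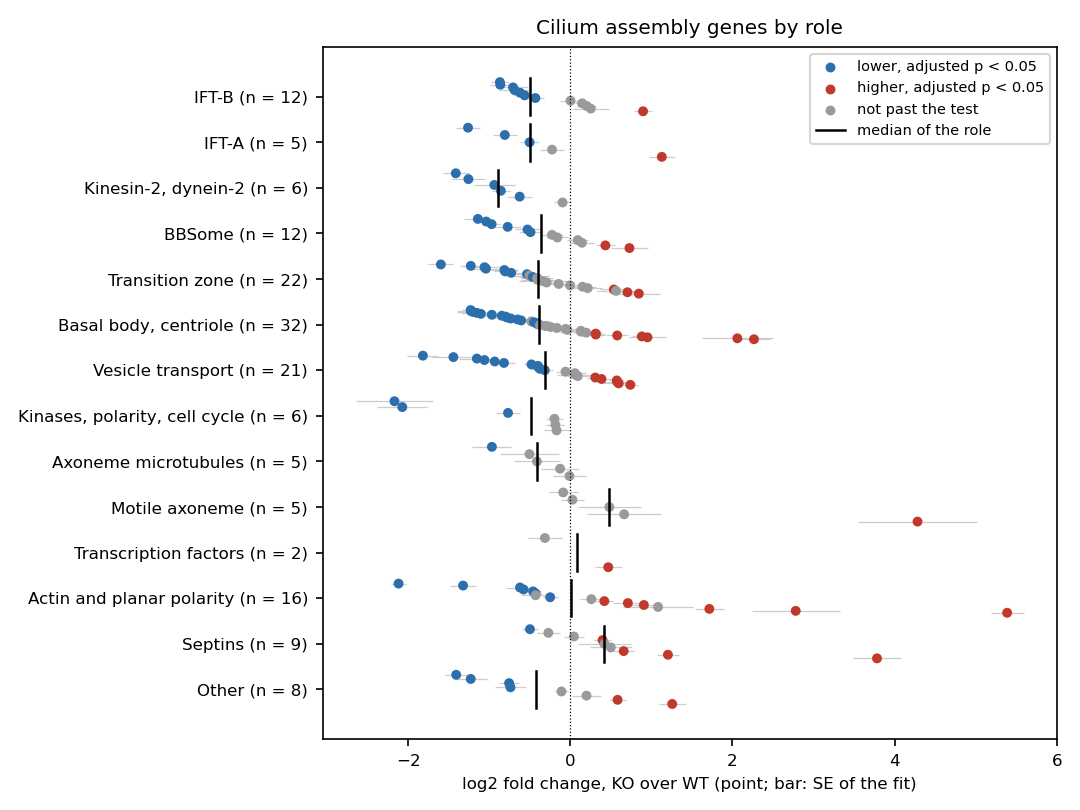
Log2 fold change of each tested cilium assembly gene (KO over WT, n = 3 libraries per group), grouped by role. Points are genes, grey bars the standard error of the edgeR fit, black ticks the median of the role, blue and red genes that passed an adjusted p of 0.05 and grey points those that did not. The medians of the transport, BBSome, transition zone and basal body groups lie left of 0, that of the septins at 0.42, and the farthest point to the right is Pla2g3 at 5.39. Ccdc65, the red point of the motile axoneme group, had at most 3 counts in any WT library, so its place is uncertain.

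Counts by role, here and in the paragraphs that follow, stand beside 30.2% lower and 31.8% higher among all tested genes, and no role was tested against these shares. Among the motors, 5 of 6 genes were lower and 0 higher. Dync2h1 (gene 110350, GRCm38 chromosome 9, 6925474 to 7184502), the heavy chain of dynein-2, had 711, 505 and 525 WT counts and 194, 227 and 184 KO counts. The groups did not overlap, and the level went from 27.0 ± 4.89 to 10.1 ± 1.14 CPM (mean ± SD over 3 libraries each), a log2FC of -1.41 (SE 0.157, edgeR adjusted p = 0.000107). The other 4 dynein-2 genes among the members were lower too. The light intermediate chain gene Dync2li1 had a log2FC of -1.26, the light chain gene Tctex1d2 -0.94, and the intermediate chain genes Wdr34 and Wdr60 -0.86 and -0.63. Wdr34 had the highest level per length of the group, 10.3 FPKM (read level per gene length and library total) in WT and 5.31 FPKM in KO. Kif3a, a motor subunit of kinesin-2, had 539, 459 and 462 WT counts and 389, 440 and 437 KO counts. Its log2FC was -0.10 (95% interval -0.31 to 0.11, edgeR adjusted p = 0.460). Its sign turned in the fit corrected for gene length, as given below, without passing the test in either fit.

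Of the 5 IFT-A genes, 3 were lower and 1 higher. Ift122 (gene 81896, chromosome 6, 115853455 to 115940036), a core IFT-A subunit, had 442, 485 and 379 WT counts and 193, 149 and 162 KO counts, with no overlap and a log2FC of -1.26 (SE 0.145, edgeR adjusted p = 0.000131). Wdr19 fell by 0.81 and Ift140 by 0.50 on the log2 scale, and Wdr35 did not pass (log2FC -0.23, edgeR adjusted p = 0.217). Ift43 went the other way. It had 109, 124 and 129 WT counts and 211, 287 and 237 KO counts, a log2FC of 1.13 (SE 0.159, edgeR adjusted p = 0.000396). Its effective length of 867 bases was the shortest of the IFT-A genes.

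Of the 12 IFT-B genes, 7 were lower and 1 was higher. Ift80 (gene 68259, chromosome 3, 68892222 to 69004819), a peripheral IFT-B subunit, had 403, 358 and 355 WT counts and 199, 179 and 188 KO counts, a log2FC of -0.87 (SE 0.112, edgeR adjusted p = 0.000247). Ift172 (-0.86), Traf3ip1 (-0.71), Ttc26 (-0.69), Ift52 (-0.62) and Ift81 (-0.56) were lower as well. Ift88, the subunit whose loss in mice is a standard model of absent cilia, had 387, 386 and 342 WT counts and 264, 267 and 235 KO counts, which left 74.2% of the WT level (log2FC -0.43, SE 0.112, edgeR adjusted p = 0.00951). All KO values lay below the WT values. Cluap1, Ift46, Hspb11 and Ift74 did not pass, with log2FC from 0.00 to 0.25. Ift20 (gene 55978, chromosome 11, 78536418 to 78541742), which links IFT-B to the Golgi, rose from 397, 389 and 411 counts to 617, 756 and 695, a log2FC of 0.90 (SE 0.107, edgeR adjusted p = 0.000157). At 780 bases it was the shortest IFT-B gene.

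**Figure D2:**
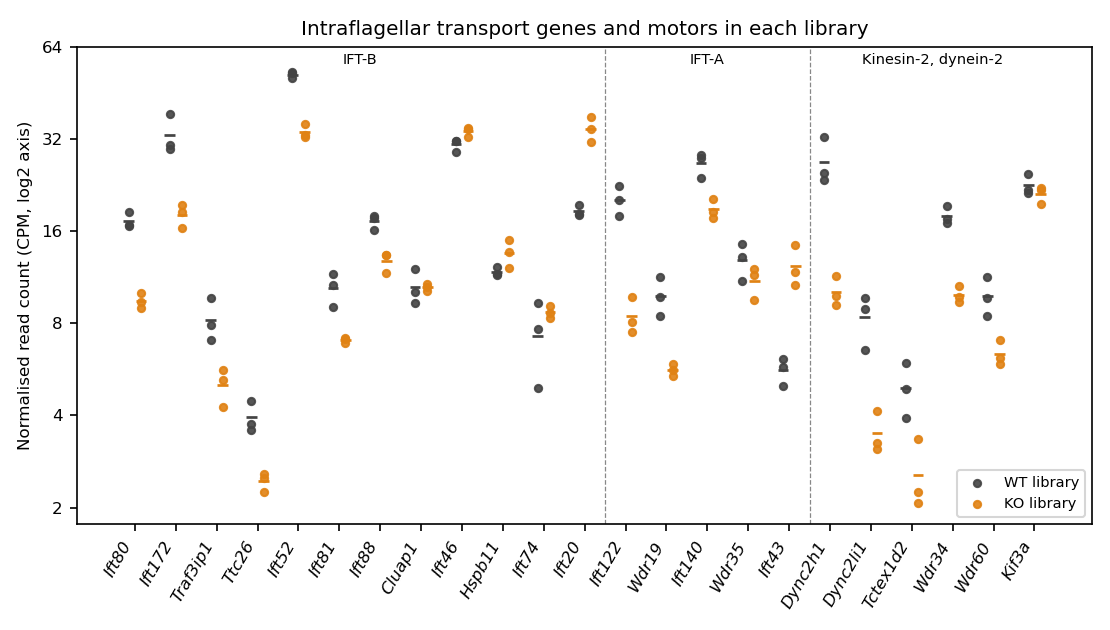
Normalised read count of the 23 intraflagellar transport and motor genes in each library (CPM, log2 axis). Points are libraries, short lines the mean of 3, dark WT and orange KO, and dashed lines part the 3 groups. The dynein-2 genes, Ift122 and Ift80 show the KO points below the WT points, Ift20 and Ift43 show them above, and Kif3a and Cluap1 overlap.

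In the BBSome group, which here includes its chaperonins and partners, 6 of 12 genes were lower and 2 higher. Bbs1 (gene 52028, chromosome 19, 4886878 to 4906627), the subunit whose promoter is shown above, had 203, 171 and 153 WT counts and 81.8, 74.9 and 63.6 KO counts (log2FC -1.14, SE 0.175, edgeR adjusted p = 0.000625). The groups were apart. Wdpcp, also known as Bbs15, went from 13.4 ± 0.458 to 6.54 ± 0.490 CPM (n = 3 per group), and Ttc8, the BBS8 subunit, had a log2FC of -0.97. Bbs4 fell from 188, 212 and 181 counts to 97, 124 and 94 (log2FC -0.77, SE 0.161, edgeR adjusted p = 0.00317). Cep19, a centriole protein that helps IFT trains enter, was the most abundant per length at 9.72 FPKM in WT and was lower by 0.53 on the log2 scale, though this call was lost in 4 of 21 alternative fits. Bbs5 had 60, 56 and 51 WT counts and 63.3, 97.1 and 96.8 KO counts, a log2FC of 0.73 (SE 0.224, edgeR adjusted p = 0.0204), and its call was lost in 5. The chaperonin gene Mkks was higher by 0.43, and Bbs9, Arl6, Rabl2 and Bbip1 did not pass.

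Transition zone genes numbered 22, with 9 lower and 3 higher. Mks1 (gene 380718, chromosome 11, 87852929 to 87863679), a member of the Meckel syndrome complex, had 320, 331 and 323 WT counts and 114, 104 and 80 KO counts, and 33.0% of the WT level was left (log2FC -1.60, SE 0.155, edgeR adjusted p = 5.36e-05). No KO library reached the WT range. Tectonic 1, from the promoter shown above, went from 18.4 ± 0.694 to 7.86 ± 1.08 CPM (Tctn1, n = 3 per group), and the other tectonic genes Tctn3 and Tctn2 had log2FC of -0.81 and -0.46. Cep290, a large protein that ties the membrane to the axoneme, had 589, 480 and 399 WT counts and 261, 268 and 249 KO counts (log2FC -0.80, SE 0.144, edgeR adjusted p = 0.00142). Rpgrip1l (-1.06), Iqcb1 (-1.04), Rpgr (-0.73) and Armc9 (-0.53) were also lower. Of the Meckel complex genes and their membrane partners, 3 rose. Tmem237 had 125, 122 and 100 WT counts and 181, 181 and 162 KO counts (log2FC 0.70, SE 0.146, edgeR adjusted p = 0.00317), Tmem17 had a log2FC of 0.84 and B9d1 one of 0.54. The B9d1 call was lost in 8 of 21 alternative fits, and with the length correction its sign turned.

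The basal body and centriole group was the largest, with 32 genes, 15 of them lower and 7 higher. Poc1b (gene 382406, chromosome 10, 99093910 to 99198074), a centriole wall protein, had 927, 906 and 916 WT counts and 326, 346 and 415 KO counts, a log2FC of -1.23 (SE 0.109, edgeR adjusted p = 3.44e-05). The WT libraries lay close together, and all KO values were far below them. Pcm1, the scaffold of centriolar satellites, had a log2FC of -0.80, and the satellite genes Cep131 and Ccdc66 were lower too, Cep131 at 43.5% of its WT level and Ccdc66 with a log2FC of -1.10. Ttbk2, the kinase that starts cilium growth, fell from 266, 268 and 209 counts to 113, 148 and 140 (log2FC -0.78, SE 0.156, edgeR adjusted p = 0.00263). The distal appendages, which dock the basal body, did not move together. Cep164 was lower (log2FC -0.45, edgeR adjusted p = 0.0129, lost in 4 of 21 alternative fits, the length correction among them), Cep89 was lower at -0.41, Sclt1 and Fbf1 did not pass at -0.06 and -0.04, and Cep83 was higher at 0.88 (SE 0.126, edgeR adjusted p = 0.000420). Dzip1l had 31.6, 44.9 and 34.3 WT counts and 181, 168 and 147 KO counts, the largest rise of the group with at least 50 counts (log2FC 2.27, SE 0.200, edgeR adjusted p = 3.34e-05). Atxn10 was the most abundant at 46.3 FPKM in WT and fell by 0.40 on the log2 scale.

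Of the 21 genes of vesicle transport and ciliary membrane, 11 were lower and 6 higher. Rab17 (gene 19329, chromosome 1, 90958133 to 90969674), a small GTPase of epithelial membrane sorting, had 531, 361 and 524 WT counts and 110, 113 and 149 KO counts, with 28.3% of the WT level left (log2FC -1.82, SE 0.191, edgeR adjusted p = 8.05e-05). Rab8a, the GTPase of vesicle delivery to the cilium, rose from 1115, 1285 and 1252 counts to 1855, 1773 and 2031 (log2FC 0.74, SE 0.0981, edgeR adjusted p = 0.000286). The groups were apart for both. Rab3ip, which encodes the exchange factor Rabin8 that activates Rab8, changed in the opposite direction to Rab8a, with a log2FC of -0.93. Arl13b, a GTPase of the ciliary membrane, had 234, 253 and 204 WT counts and 274, 263 and 299 KO counts. Its log2FC of 0.38 (SE 0.123, edgeR adjusted p = 0.0241) was lost in 8 of 21 alternative fits. Its substrate Arl3, which releases lipidated cargo, and the cargo carrier Unc119b were lower, at -0.40 and -1.06. The proton pump subunit gene Atp6v1d had the highest level, 93.5 FPKM in WT, and its rise of 0.31 was lost in 11 alternative fits.

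Of 9 tested septins, GTP-binding filament proteins found at the ciliary base, 4 were higher and 1 was lower. Sept6 (gene 56526, chromosome X, 36911272 to 36990205) had 6, 11.0 and 7.56 WT counts and 102, 90 and 132 KO counts, a log2FC of 3.78, and it too passed the filter through KO only. Sept8 (2.30-fold), Sept9 (log2FC 0.66) and Sept7 (0.40) were higher too, Sept10 was lower at -0.50, and the most abundant, Sept5, did not pass at -0.27. Without the septins, 71 of 152 members were lower and 30 higher, and the median log2FC was -0.38.

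Actin regulators and planar polarity genes were split, with 7 of 16 lower and 6 higher. Parva (gene 57342, chromosome 7, 112427706 to 112591688), a parvin that links integrins to actin, had 3825, 3711 and 3809 WT counts and 862, 762 and 796 KO counts. With 23.0% of its WT level left, it had the largest fall in this group (log2FC -2.12, SE 0.0879, edgeR adjusted p = 8.85e-07). Gsn, which severs actin filaments and was the most abundant member of all at 479 FPKM in WT, had a log2FC of -0.58, and Fuz, a planar polarity effector, one of -1.32. Pla2g3 (gene 237625, chromosome 11, 3488092 to 3499346), a secreted phospholipase, had 8, 11 and 7 WT counts and 369, 348 and 307 KO counts, the largest log2FC of any member, 5.39. It passed the filter on low counts through KO only, so that it had to differ, and its test is not given. Celsr2, a planar polarity cadherin, rose 3.28-fold from 70.0 ± 5.67 to 230 ± 60.5 CPM (n = 3 per group).

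In the smaller groups, Ick, a kinase that acts on IFT at the tip, had 1086, 874 and 968 WT counts and 600, 421 and 571 KO counts (log2FC -0.77, SE 0.148, edgeR adjusted p = 0.00216), and the polarity gene Pard3 did not pass at -0.20. The lowest log2FC of any member, singled out after its value was seen, was that of Pkhd1, the fibrocystin gene, with 24, 12 and 14 WT counts and 4, 2 and 4 KO counts (log2FC -2.17). It passed the filter through WT only. Tekt5, a tektin filament gene, was lower by 0.97, while the centriolar satellite gene Pibf1 did not pass at -0.01. Among members outside these roles, Lama5, a laminin of basement membrane, had a log2FC of -1.41, D1Ertd622e one of 1.26, and Nudcd3, a dynein chaperone, one of -0.11 that did not pass.

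Of 13 members with motile axoneme roles 5 could be tested, the other 8 having at most 16 counts in any library, and 1 of the 5, Ccdc65 of the nexin-dynein regulatory complex, was higher, with 2, 0 and 3 WT counts and 34, 14 and 49 KO counts. Its groups did not overlap, but it passed the filter through KO only. Its WT counts lay at or below the floor of 3 counts, so its log2 fold change is not given as a size. Cfap20 was the most abundant and did not pass (edgeR adjusted p = 0.882). Foxj1 had 0, 0 and 1 WT counts and 1, 0 and 0 KO counts, so that it was not detectable above the floor of 3 counts. Of the 8 transcription factor members only Rfx2 and Rfx3 were tested. Rfx2 had 383, 340 and 337 WT counts and 238, 192 and 361 KO counts (log2FC -0.31, edgeR adjusted p = 0.224). KO replicate 3 did not lie below all WT libraries. Without that library the log2FC was -0.60 and passed the test, but Rfx2 passed in no other alternative fit. Without KO replicate 2 its log2FC was -0.13. Rfx3 had 91.1, 86.1 and 71.8 WT counts and 112, 107 and 100 KO counts. Its groups did not overlap, but its adjusted p of 0.0381 (edgeR, log2FC 0.47) was lost in 14 of 21 alternative fits.

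Because longer genes were lower in KO across the whole table, the members were next compared at matched length. Effective length, the length implied by the deposited counts and FPKM, had a median of 3094 bases in the tested members and 2852 bases in all tested genes. The members' median level in WT was 4.58 FPKM and their median GC content 48.6%, beside 7.83 FPKM and 49.7% for all tested genes. The Spearman correlation of log2 fold change with length was -0.19 over the 161 members and -0.21 over the 13305 genes, given as descriptions because genes of a library are not independent. All tested genes were cut into 4 bins of equal size by length. In bin 1, up to 1805 bases, 11 of 40 members (27.5%) were lower, beside 15.9% of all genes. In bin 2 it was 15 of 31 (48.4%) beside 29.8%, in bin 3, from 2853 bases, 19 of 35 (54.3%) beside 34.9%, and in bin 4, above 4295 bases, 27 of 55 (49.1%) beside 40.4%. The members' share of lower genes was above that of all genes in each bin. Their share of higher genes was 22.5%, 22.6%, 22.9% and 18.2% from bin 1 to bin 4, beside 45.8%, 31.7%, 26.1% and 23.6% of all genes.

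A curve of counts on length was then fitted in each library and taken out, which did not leave the genes free of a length trend. The median log2FC of all genes from bin 1 to bin 4 was 0.31, 0.02, -0.09 and -0.18 before and -0.10, 0.03, 0.05 and 0.07 after. The trend was thus smaller but turned round, and corrected values of short genes may lie too low. With this correction 66 members were lower (41.0%) and 32 higher (19.9%), beside 29.5% and 31.2% of all genes, and the median log2FC of the members was -0.23. Of the 72 lower members 59 stayed lower, and 28 of the 34 higher members stayed higher. By bin, the lower members were now 18 of 40 (45.0%), 13 of 31 (41.9%), 16 of 35 (45.7%) and 19 of 55 (34.5%), beside 33.9%, 29.0%, 27.5% and 27.7% of all genes. Higher were 7.50%, 22.6%, 25.7% and 23.6% of the members, beside 25.9%, 31.8%, 32.4% and 34.8% of all genes. For lower genes the longest bin thus showed the smallest margin. Some single genes moved by more than the median did. Ift20 lost its call (log2FC 0.19, edgeR adjusted p = 0.123), as did Ift140 (-0.26) and Cep164 (-0.18), and Ift43 was left at 0.50. B9d1 turned to -0.20 and Kif3a to 0.16, neither past the test. Dync2h1, of 13298 bases, kept -1.10, Ift122 -1.09, Mks1 -1.57 and Bbs1 -0.88. The short motor gene Tctex1d2, of 637 bases, moved from -0.94 to -1.80. When bins were cut by the span of the gene on the chromosome instead, 7 of 23, 9 of 28 (32.1%), 27 of 52 and 29 of 58 members were lower, beside 21.8%, 28.6%, 31.7% and 38.8% of all genes. In span bin 2 the members lay near all genes, with 32.1% higher beside 32.2% and a median log2FC of 0.10 beside 0.04.

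**Figure D3:**
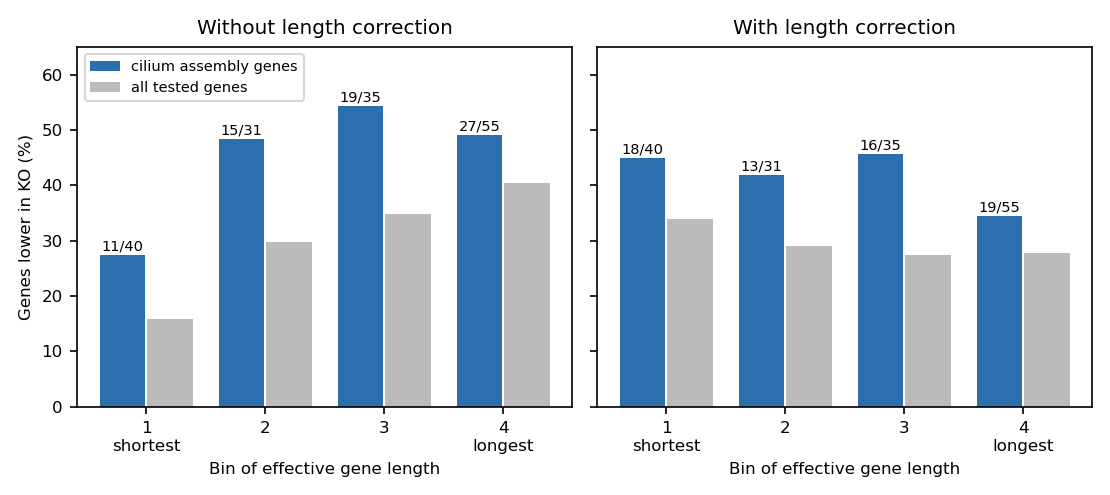
Share of genes lower in KO (percent, adjusted p under 0.05) in 4 bins of effective gene length, for cilium assembly genes (blue, with the count over the number tested) and all tested genes (grey), without and with the length correction. The blue bar is above the grey bar in each bin of both panels, with the widest gap, 19 of 35 members beside 34.9% of all genes, in bin 3 without correction and the narrowest, 19 of 55 beside 27.7%, in bin 4 with it.

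**Figure D4:**
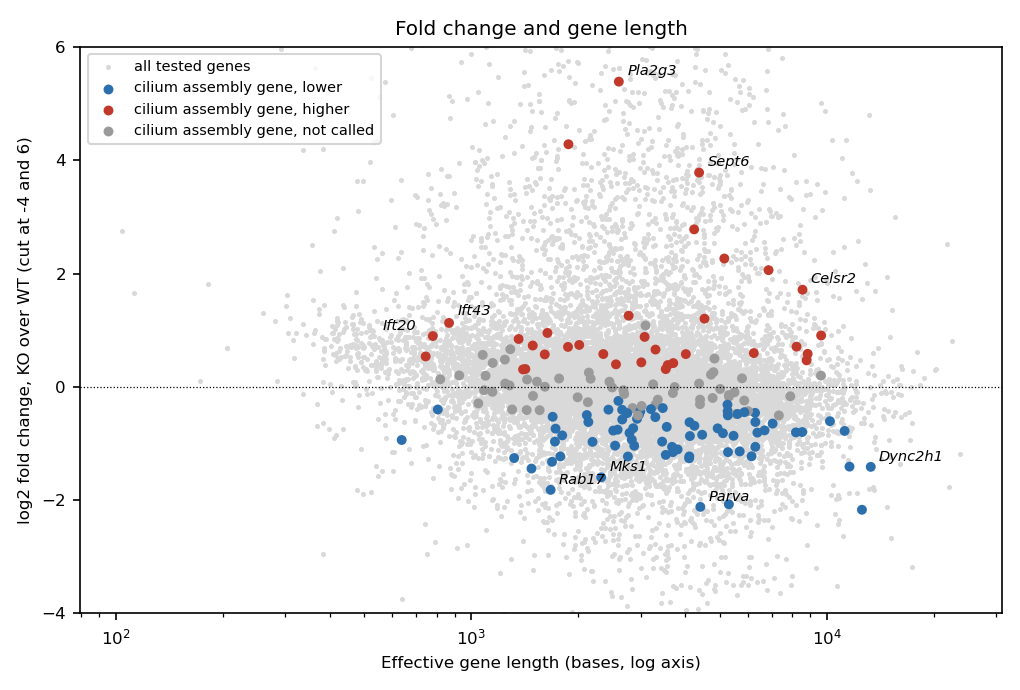
Log2 fold change (KO over WT) against effective gene length (bases, log axis) for all tested genes (light grey) and the tested members (coloured by call). The axis is cut at -4 and 6, which leaves out 331 genes, none of them a member. Ift20 and Ift43 are short genes above 0, and Dync2h1 is among the longest and lies below 0.

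Genes that act in the cilium were compared next from lists beside the term. Counts of called genes in these lists, and in the marker lists below, stand beside 31.8% higher and 30.2% lower among all tested genes. Whether the lists differ from these shares was not tested. Of 12 tested genes of Hedgehog signalling, which runs through the primary cilium, 5 were higher and 6 lower. The transducer gene Smo had 296, 521 and 345 WT counts and 1271, 1088 and 1236 KO counts (log2FC 1.74, SE 0.199, edgeR adjusted p = 0.000127), and the effector gene Gli2 had 2, 1 and 6 WT counts and 135, 80 and 115 KO counts. Gli2, counted among the higher genes, passed the filter on low counts through KO only, so that it had to differ. The co-receptor gene Gas1 (-1.41), the receptor gene Ptch1 (-0.94) and Hhip (-2.09), both known as targets of the pathway, were lower. Gli1, another known target, was at 0 counts in WT and at 16, 5.35 and 14 in KO and was not tested. Of 17 tested genes of ciliary membrane cargo and its carriers, 6 were higher and 7 lower, with Adcy3, an adenylyl cyclase used as a cilium marker, at a log2FC of 3.96 and Adcy6 at -1.42. Of 12 cilium disassembly genes, which also act in mitosis, 6 were higher and 2 lower. Nedd9 (2.26), Nek2 (1.17), Aurka (0.96) and Plk1 (0.96) were higher, and Dvl2 (-1.24) and Tchp (-1.09) lower.

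Markers of other cells moved between the groups as well. Of 30 multiciliated cell markers 20 were in the table, 9 of them, Foxj1 included, at 3 counts or fewer in every library, and of 7 tested 1 was higher and 2 lower. Their summed level was 20.6 to 30.8 CPM in WT and 35.6 to 81.1 CPM in KO, and in KO most of it was Tppp3. Conjunctival and goblet cell markers were higher for 7 of 7 tested genes (1874 to 2902 CPM in WT, 52226 to 66939 CPM in KO). Most of these sums was the keratin genes Krt13 (means of 1972 CPM in WT and 38248 CPM in KO) and Krt4 (149 and 21745 CPM). Muc5ac, Muc5b and Spdef had KO means of only 6.19, 5.48 and 8.22 CPM, and Muc5ac had 141, 15 and 214 KO counts. Epidermal markers were higher for 6 of 7, with 1 lower (33.2 to 45.6 and 12305 to 25257 CPM). Keratocyte and fibroblast markers were higher for 5 of 6 and lower for 1, with sums of 13.4 to 16.9 and 19.2 to 32.3 CPM, and Lum at 0 counts in each WT library and at most 4 in KO. Most of that sum in WT was Pdgfra, the lower gene, at a mean of 13.1 CPM in WT and 1.21 CPM in KO. Leukocyte markers were higher for 4 of 6 and lower for 1, with sums of 271 to 346 and 261 to 333 CPM. Most of these sums was Itgam, the lower gene, at a mean of 266 CPM in WT and 175 CPM in KO. Of the higher genes, Ptprc went from 0.402 to 5.27 CPM and Cd74 from 7.99 to 64.3 CPM, so that the sums do not show their rise. Of the vessel markers 1 of 2 was higher (1.28 to 1.89 and 2.26 to 3.34 CPM), with Kdr at 0 counts in WT. Nerve markers were higher for 1 and lower for 2 of 3 (58.3 to 79.8 and 35.9 to 52.4 CPM), and melanocyte markers lower for 2 of 4 (8.43 to 10.1 and 5.73 to 6.37 CPM). Most of the nerve sum in WT was Ngfr, which fell from 66.2 to 15.2 CPM, while Tubb3 rose from 0.125 to 24.8 CPM. Some of these markers passed the filter on low counts through KO only, so that they had to differ, and the counts of higher markers rest partly on them. Among them were Muc5ac, with 0 counts in each WT library, Krtdap (0, 4 and 1 WT counts) and Lyz2 (0, 2 and 2 WT counts). The multiciliated marker Ccdc40, which was lower, passed through WT only. The part of these other cells in the changes of the cilium assembly genes was not tested.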

How the data were processed

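RNA-seq of 3 WT and 3 KO corneal epithelium samples was analysed. The methods give depletion of ribosomal RNA and single-end reads from a BGISEQ machine, and the labels an Illumina kit. The authors aligned reads with Bowtie2 2.2.5 and deposited estimated counts from RSEM 1.2.12, FPKM and TPM per gene. The deposited FPKM is relative to effective length and library total. The deposited TPM entered no test. The labels name mm9, but positions in the table match GRCm38. RSEM divides reads that match several genes, and 54 of the 161 tested members had counts that were not whole. A further property of these counts is that 44 tested members overlap another gene and whether strand was used is not stated, so reads of such genes may be shared. Columns of the authors' own DESeq2 comparison (log2 fold changes and p-values) were not used.

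Samples were grouped by title and genotype label. Rounded counts went into edgeR 4.0.16 under R 4.3.3 (TMM, filterByExpr, quasi-likelihood test with only genotype as a term), and p-values were adjusted by Benjamini-Hochberg over 13305 genes with the standard error taken as the absolute log2 fold change over the square root of F. CPM used the TMM factors. The length correction used, per library, an offset from a loess curve (span 0.5) of log counts against log effective length. Alternatives were DESeq2 1.42.0, other scalings and filters, limma 3.58.1 on log2(FPKM + 1) and log2(FPKM + 0.1), glmTreat against a fold of 1.2, length and GC corrections, the replicate number as a block, and leaving out each library. Leaving out the septins, or the 8 members that passed the filter in 1 genotype only, was added after seeing the data. The scripts were checked on simulated data. Promoters were those of RefSeq on GRCm38.p6. Plots and tables used Python 3.11.15, pandas 2.3.3, numpy 2.4.6 and matplotlib 3.10.9.

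The members and lists were chosen with earlier results of these data known. Roles were assigned to 147 of the 185 members before the table was opened and to the rest from gene names. Named within each role were the member of highest mean FPKM, the largest called rise and the largest called fall without overlap and with at least 50 counts in the higher group, and textbook cilium genes. Transport genes were given in full, and other members were picked after their values were seen.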

Additional observations from a re-analysis of the deposited data

How the results depend on the processing

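Of the 106 called members, 71 kept their call and direction in each of up to 21 alternative fits (51 lower, 20 higher), and 1, B9d1, changed sign. Leaving out 1 library gave 61 to 70 lower (37.9% to 42.9%) and 27 to 32 higher members (16.7% to 19.9%). Of all genes tested in these fits, 25.1% to 29.1% were lower and 28.4% to 31.2% higher. The members' median log2 fold change of -0.31 was -0.41 with total counts only, which also moved the median of all genes to -0.09, -0.39 in limma on log2(FPKM + 0.1), -0.21 on log2(FPKM + 1) without the filter, -0.23 with the length correction, -0.23 with it and the replicate block, -0.38 without the septins, and -0.35 to -0.26 without 1 library, the latter without KO replicate 3. At the study's threshold limma on log2(FPKM + 1) gave 3 higher and 9 lower members, or 3 and 8 without the filter, the replicate block with length correction gave 9 lower, and leaving out 1 library gave 11 to 14 lower, the fewest without WT replicate 1. In length bin 1, 18 members were lower with the length correction and 7 by gene span, and in bin 2, 9 by gene span. Against a fold of 1.2, 59 were lower (36.6%) and 24 higher (14.9%), beside 23.4% and 26.3% of all genes. Without the 8 members that passed the filter in 1 genotype only, 70 of 153 were lower and 30 higher. The cause of these differences was not tested.

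The labels do not say whether the replicate numbers pair the animals. In their deviations from the group mean, same-numbered libraries correlated at 0.03, -0.01 and 0.06, and libraries of unlike number at -0.16 to 0.12. With 3 libraries per group this cannot exclude pairing. With the replicate block 72 members were lower (44.7%) and 32 higher (19.9%), beside 29.6% and 31.2% of all genes.

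Signs turned for named genes as follows. With the length correction, alone and with the replicate block, B9d1 was at -0.201 and -0.206, Cfap20 at -0.256 and -0.246, Kif3a at 0.157 and 0.156, Nudcd3 at 0.0469 and 0.0460, Pard3 at 0.0154 and 0.0101, and Pibf1 at 0.0408 and 0.0406. Cfap20 was also at -0.0654 with total counts only, at -0.0558 and -0.0582 in limma with a pseudocount of 1 (with or without the filter) and 0.1, and at -0.0659 to 0.194 without 1 library. Pibf1 was at 0.0177 with a mean count of at least 50 and at -0.165 to 0.149 without 1 library. Each of these but B9d1 had not passed the test. The 24 untested members had too few counts for the test, and 3 counts is 0.137 to 0.152 CPM. Whether depth or low expression set their counts was not tested.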
